A study of Mus musculus with 4 samples.

Results

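Immunoglobulin transcripts were measured in prostate RNA of 4 males of the inbred mouse strain C57BL/6, with 1 whole-transcript array per mouse. The vas deferens had been interrupted by vasectomy in 2 mice, and the other 2 had a sham operation. According to the sample labels the mice were operated at 16 weeks and the tissue was lateral prostate. The labels use 24 weeks for the age at harvest and also for the interval since surgery, whereas the study's methods state an earlier surgery and the dorsolateral lobe. The mice of each group carry the numbers 1 and 2, and neither source says what mice with the same number share. The values were made by the authors with RMA and are taken as log2, and the number of arrays limits the precision.

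The 20 genes described here are the immunoglobulin heavy chain genes, the kappa and lambda light chain genes and the J chain gene, out of 22180 genes measured. They were chosen by symbol, and the probe set that stands for each gene was selected on its mean over the 4 arrays, the brightest of the probe sets that carry that 1 symbol. Their level is therefore a description with no test. There were 5 heavy chain genes (Ighm, Ighg3, Ighv1-47, Ighv1-53 and Ighv1-54, chromosome 12), 13 kappa variable genes (chromosome 6), 1 lambda variable gene (Iglv1, chromosome 16) and Jchain (chromosome 5), with chromosomes and gene types taken from the RefSeq table. All 20 gene numbers were found there, and 0 symbols had changed. The IgA, IgD and IgE heavy chain constant genes and the light chain constant genes had no probe set with exactly 1 symbol. The same held for the constant genes of IgG subclasses other than IgG3, and none of these genes are analysed here.

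An antibody is built of heavy and light chains, each with a variable region that binds antigen and a constant region. The constant region of the heavy chain sets the class. A developing B cell joins 1 variable gene to short joining segments by V(D)J recombination, so different B cells transcribe different variable genes. Plasma cells, which B cells give rise to, transcribe these genes at very high rates. The J chain ties IgM and IgA into polymers, and the polymeric immunoglobulin receptor Pigr carries such polymers across glandular epithelium into secretions.

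Jchain was the 1 gene of the 20 with a RefSeq promoter sequence, and it is shown because the J chain is shared by antibody-secreting cells whatever variable gene they use. The window runs from 250 bases before to 50 bases after the gene start, on the minus strand of GRCm38.p6 at chr5:88527848-88528147. Capitals mark a match to the E-box letters CAGGTG, searched on both strands and read here as CACCTG, which begins at position 256, just past the gene start at position 251.
Jchain: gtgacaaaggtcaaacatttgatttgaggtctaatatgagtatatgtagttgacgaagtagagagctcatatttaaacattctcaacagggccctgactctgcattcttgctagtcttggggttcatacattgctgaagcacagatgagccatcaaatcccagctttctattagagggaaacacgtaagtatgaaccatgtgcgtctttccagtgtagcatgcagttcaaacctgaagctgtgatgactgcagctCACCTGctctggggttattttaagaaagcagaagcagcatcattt
The E-box letters were in 20.2% of the 32851 windows of this length in the table. The octamer ATGCAAAT, known from promoters of immunoglobulin variable genes, had 0 matches in the Jchain window on either strand and was in 1.74% of all windows. The letters TATAAA also had 0 matches and were in 13.6% of windows.

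Receptor genes for odours and pheromones are mostly transcribed in sensory tissue only, and the 95th percentile of the means of 1394 such genes, 4.625, served as a stand-in for background. The mean of 11 immunoglobulin genes lay above it, and that of the other 9 lay below it. Just above were Igkv4-70 at 4.68 and Ighg3 at 5.04, and just below were Igkv8-30 at 4.53 and Igkv1-133 at 4.40. The prostate secretory genes Pbsn and Tgm4 were at 12.39 or more in every array. The array of vasectomy 2 stood apart from the rest: its correlation with the other arrays over all genes was 0.970 to 0.976, and the other 3 arrays correlated at 0.984 to 0.989. In that array 10 of 13 luminal secretion genes had their lowest value and 8 of 8 seminal vesicle genes their highest, so values without it are given with several of the results. The falls among the 10 luminal genes differed in size. Sbp was at 3.37 and Spink5 at 4.96 in vasectomy 2, against at least 12.37 and 11.45 in the other arrays, whereas Krt8 was at 8.65 against at least 8.80.

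Vasectomized and sham mice were compared to find which transcripts differed after the operation. Over the 20 immunoglobulin genes, the mean was higher in vasectomized mice for 7 and lower for 13, with a median difference of -0.185 on the log2 scale against 0.00 over all genes. None of the 20 passed an adjusted p under 0.05 in limma, where 0.0% of all 22180 genes did. At an unadjusted p under 0.05 limma gave 1 of the 20 and 453 of all genes, and the methods' t-test gave 0 and 750, with 0 of either after adjustment. The groups did not overlap for 2 immunoglobulin genes that were higher in vasectomized mice, against 12.5% of all genes, and for 1 that was lower, against 12.0%. Neither count, 2 of 20 or 1 of 20, exceeds the share over all genes. Leaving out 1 array gave a median of -0.432 (vasectomy 2 left out), 0.30 (vasectomy 1), -0.38 (sham 1) or 0.19 (sham 2), so its sign turned with the array left out.

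**Figure D1:**
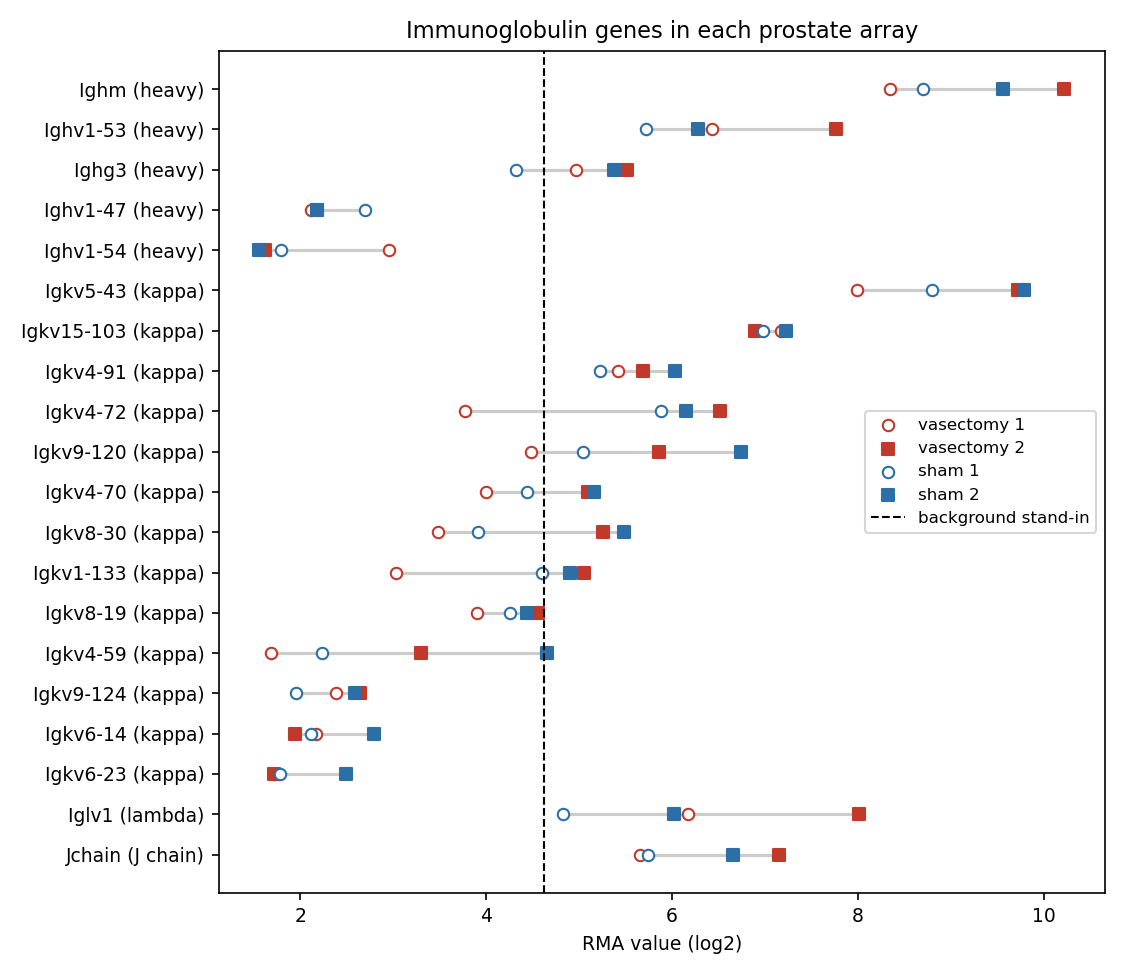
RMA values (log2, horizontal axis) of the 20 immunoglobulin genes in each of the 4 arrays, by locus, with vasectomized mice in red and sham mice in blue, mouse 1 as open circles and mouse 2 as filled squares. The dashed line is the background stand-in at 4.625, and the grey bars span the 4 arrays. For Ighm, Igkv5-43 and Jchain the filled squares of both groups lie to the right of the open circles.

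Among the heavy chain genes is the constant gene Ighm, which encodes the mu chain of IgM. Ighm was at 8.34 and 10.22 in vasectomized mice and at 8.70 and 9.56 in sham mice. The groups overlapped entirely, with both extremes among the vasectomized mice. The means were 9.28 ± 1.33 and 9.13 ± 0.61 (SD, n = 2 each), for which limma gave a difference of 0.15 (95% interval -1.39 to 1.69, standard error 0.62, adjusted p = 1.0). The Ighm difference was -0.79 without vasectomy 2 and -0.28 without sham 1, so its direction rested on single arrays.

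Ighg3, which encodes the gamma chain of the IgG3 subclass, was at 4.97 and 5.51 in vasectomized mice and at 4.32 and 5.37 in sham mice. Sham 1 was the low array and the other 3 lay within 0.54 of each other. The difference was 0.395 (standard error 0.38, adjusted p = 1.0 from limma), and it was 0.125 without vasectomy 2 and -0.13 without sham 1.

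Of the 3 heavy chain variable genes, 1 lay above the stand-in. Ighv1-53 was at 6.43 and 7.76 in vasectomized mice, against 5.72 and 6.28 in sham mice. Both vasectomized mice lay above both sham mice, by 0.15 for the nearest arrays. The means were 7.10 ± 0.94 and 6.00 ± 0.40 (SD, n = 2 each), and the difference of 1.095 (standard error 0.45, 95% interval -0.01 to 2.20) did not pass (adjusted p = 1.0 from limma). It was 0.43 without vasectomy 2 and 1.76 without vasectomy 1. Ighv1-47 was at 2.12 and 2.18 in vasectomized mice and at 2.70 and 2.18 in sham mice, and Ighv1-54 at 2.96 and 1.62 and at 1.79 and 1.56. Both are below the stand-in, and in each 1 array of 4 stood above the other 3.

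Light chain genes of the lambda locus were represented by Iglv1, a variable gene. Iglv1 was at 6.17 and 8.01 in vasectomized mice, against 4.83 and 6.02 in sham mice. Vasectomy 2 was far above the other arrays, and vasectomy 1 exceeded sham 2 by 0.15. The means were 7.09 ± 1.301 and 5.43 ± 0.84 (SD, n = 2 each). The difference of 1.665 (standard error 0.66, 95% interval 0.04 to 3.29, unadjusted p = 0.046, adjusted p = 1.0 from limma) was the largest among the 20 genes and the only one with an unadjusted p under 0.05. Iglv1 lost that unadjusted p with quantile normalization run again, with dim genes left out of the fit, in the methods' t-test and without vasectomy 2, sham 1 or sham 2. It kept its sign without each array and was 0.745 without vasectomy 2, 1.07 without sham 1, 2.26 without sham 2 and 2.585 without vasectomy 1. Iglv1 was already known from earlier results of these data when the genes were chosen, so its place at the head of the group is no independent evidence.

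Most kappa variable genes had differences below 0. Of the 13, 12 had a lower mean in vasectomized mice, with a median difference of -0.40, whereas 4 of the 5 heavy chain genes had a higher mean (median 0.395). Over all 22180 genes, 11038 had a lower mean. Genes below the stand-in were included in these counts, and with dim genes left out the medians were -0.342 for kappa and 0.395 for heavy chain genes. Both medians depended on single arrays. The kappa median was -0.80 with vasectomy 2 left out, -0.77 with sham 1 left out, 0.21 with vasectomy 1 left out and 0.055 with sham 2 left out. The heavy chain median was 0.125, -0.03, 0.665 and 0.58 with the same arrays left out. Vasectomy 1 was the lowest array for 8 kappa genes and sham 2 the highest for 9. Kappa probe sets not used here differed in both directions. The joining segment Igkj1 differed by 0.545, and the probe set listed for Igkv4-53, Igkj1 and Igkv6-23 by 0.03. The one listed for Igkv9-124 and Igkv4-70 differed by -0.105, and the unused ones of Igkv5-43 by -0.365 and -0.335.

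Igkv5-43 was at 7.99 and 9.72 in vasectomized mice and at 8.80 and 9.78 in sham mice. Vasectomy 2 and sham 2 were nearly equal, and vasectomy 1 was lowest. limma gave a difference of -0.435 (95% interval -1.92 to 1.05, standard error 0.60, adjusted p = 1.0), which was 0.43 without vasectomy 1 and -1.3 without vasectomy 2. Igkv4-72 was at 3.77 and 6.51 in vasectomized mice and at 5.88 and 6.15 in sham mice. The low value of vasectomy 1 alone set its mean apart, and the difference of -0.875 (standard error 0.82) became 0.495 without that array, and it was -2.245 without vasectomy 2.

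Igkv9-120 was at 4.48 and 5.86 in vasectomized mice and at 5.04 and 6.74 in sham mice. The arrays of the groups alternated in order. Igkv4-59 was at 1.69 and 3.30 in vasectomized mice and at 2.24 and 4.65 in sham mice, with only sham 2 above the stand-in. It had the lowest difference of the 20 genes (-0.95, standard error 0.86), which was 0.255 without sham 2 and -1.755 without vasectomy 2.

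The kappa gene that varied least between arrays was Igkv15-103. It was at 7.17 and 6.89 in vasectomized mice and at 6.98 and 7.22 in sham mice, a range of 0.33 over the 4 arrays and the narrowest of the 20 genes. Its difference was -0.07 (standard error 0.19, 95% interval -0.53 to 0.39), and 0.07 without vasectomy 2. Igkv4-91 was at 5.42 and 5.69 and at 5.22 and 6.03 in the same order of groups, with a range of 0.81 and a difference of -0.07 (standard error 0.29) that was -0.205 without vasectomy 2. For these genes too the adjusted p from limma was 1.0. The other 7 kappa genes differed by -0.71 (Igkv1-133) to 0.24 (Igkv9-124), and 1 of the 7, Igkv4-70, lay above the stand-in. In the Igkv4 family, whose 4 measured genes share sequence, the differences ran from -0.95 to -0.07. Igkv6-23, chosen after its values were seen, was the gene with lower and non-overlapping values, at 1.72 in both vasectomized mice and at 1.78 and 2.49 in sham mice, below the stand-in in all 4 arrays. Igkv1-133, Igkv9-124, Igkv8-30 and Igkv4-70 were likewise named after their values were seen.

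**Figure D2:**
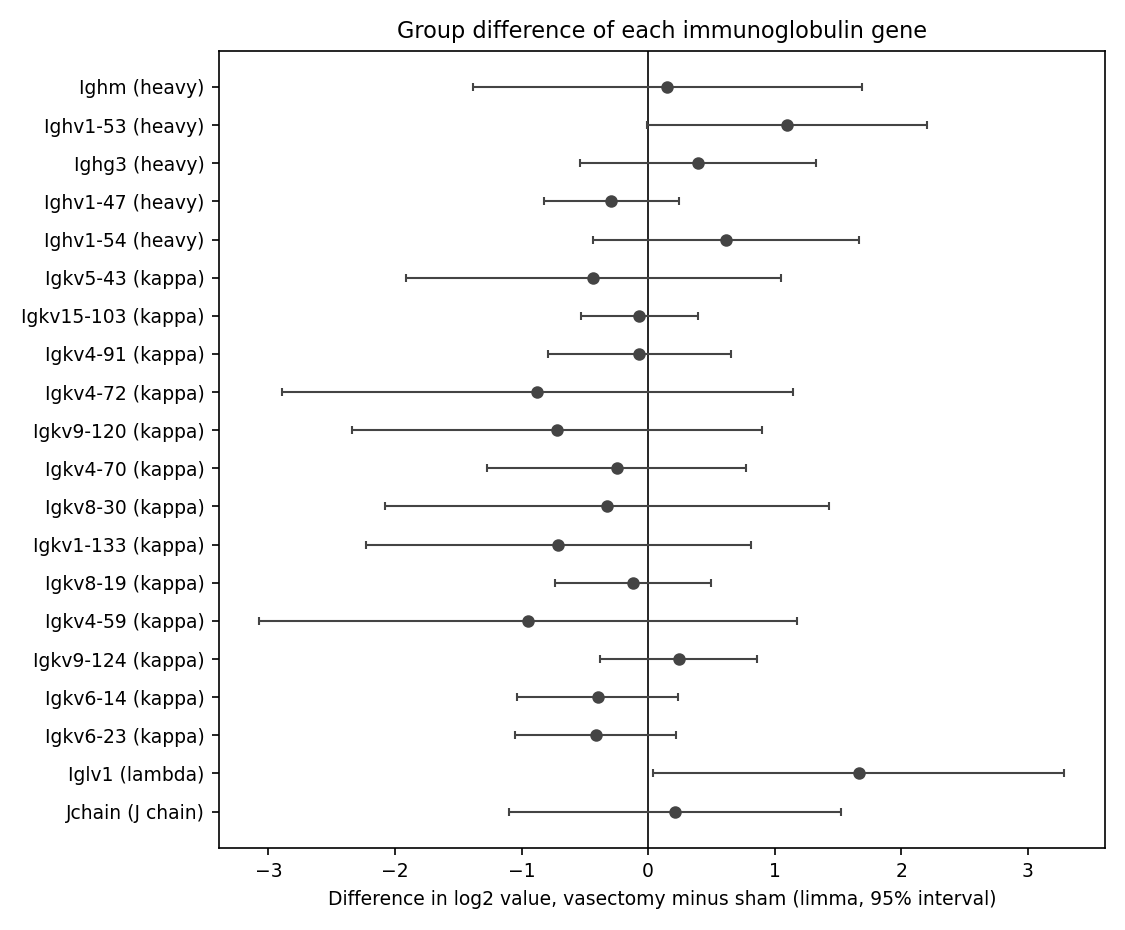
Difference in log2 value between the groups, vasectomy minus sham (horizontal axis), for each of the 20 immunoglobulin genes, with the 95% interval from limma as a bar. The interval of Iglv1 (0.04 to 3.29) lies above 0 before adjustment, and the other 19 intervals include 0.

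The J chain gene followed the order seen in Ighm. Jchain was at 5.66 and 7.15 in vasectomized mice and at 5.74 and 6.65 in sham mice. Vasectomy 1 and sham 1 were 0.08 apart, below both other arrays. The means were 6.405 ± 1.05 and 6.195 ± 0.64 (SD, n = 2 each), and limma gave a difference of 0.21 (95% interval -1.10 to 1.52, standard error 0.53, adjusted p = 1.0) that was -0.535 without vasectomy 2.

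The spread between mice of the same group was larger than the difference between groups. For all 20 genes the group difference was smaller than the larger of the gaps between mice of a group, as it was for 84.1% of all genes. The 2 vasectomized mice were at least 2-fold apart (1 on the log2 scale) for 12 of 20 immunoglobulin genes, against 2.43% of all genes. The 2 sham mice were that far apart for 5 of 20, against 1.18% of all genes. The median gap was 1.335 between the vasectomized mice and 0.715 between the sham mice, against 0.22 and 0.19 over all genes. Genes below the stand-in were included in these counts, and over the 11 above it the median gaps were 1.38 and 0.86.

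The gaps ran the same way in both groups. Vasectomy 2 was above vasectomy 1 for 16 of 20 genes, against 50.1% of all genes, and sham 2 was above sham 1 for 18 of 20, against 50.9%. Both held for 15 of 20, against 30.2% of all genes. Among these 15 are Ighm, Ighg3, Ighv1-53, Iglv1, Jchain, Igkv5-43, Igkv4-72 and Igkv9-120. The exceptions in at least 1 group are Ighv1-47, Ighv1-54, Igkv15-103, Igkv6-14 and Igkv6-23, of which only Igkv15-103 is above the stand-in. The genes of 1 array share the same RNA and several share sequence, so they are not independent replicates of this order, and it has no test.

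**Figure D3:**
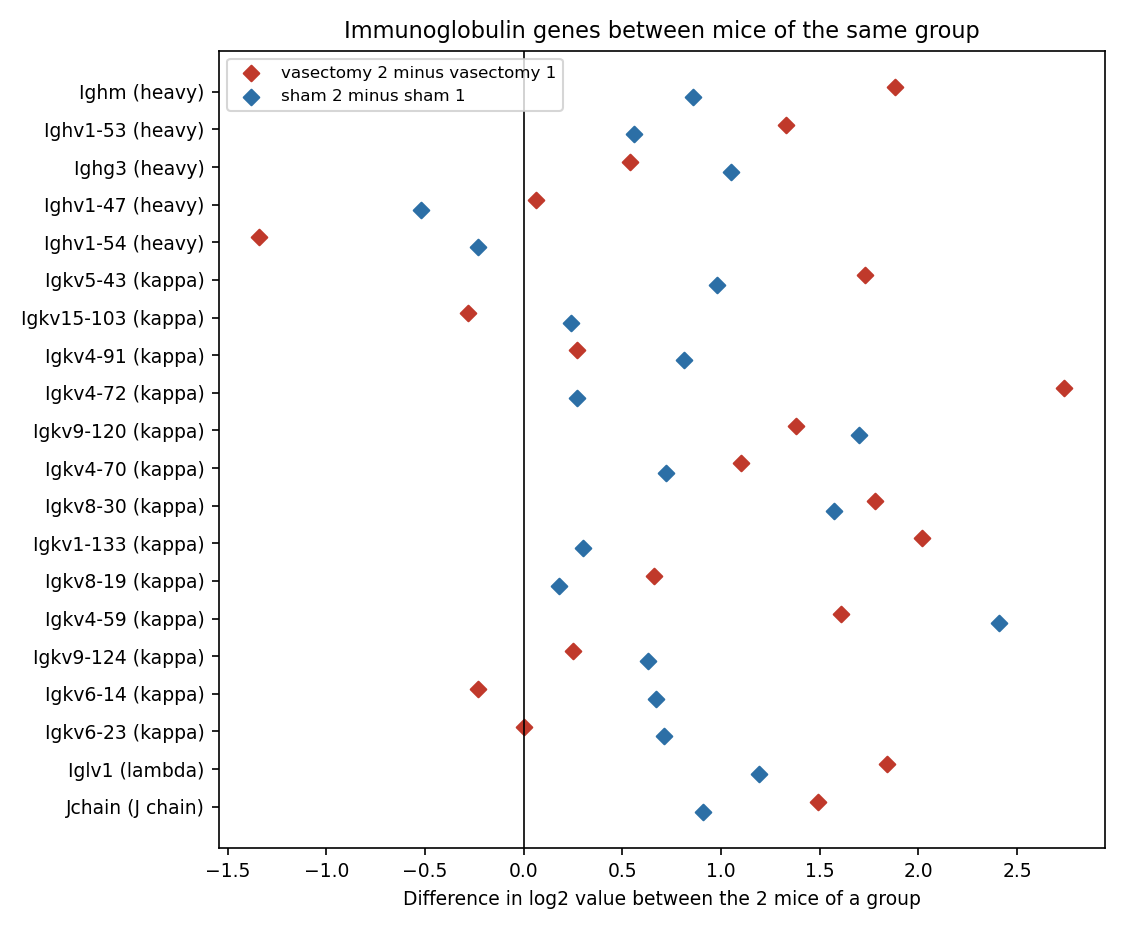
Difference in log2 value between the 2 mice of a group (horizontal axis) for each of the 20 immunoglobulin genes, vasectomy 2 minus vasectomy 1 in red and sham 2 minus sham 1 in blue. Most points of both colours lie to the right of 0, with 16 of 20 for the vasectomized mice and 18 of 20 for the sham mice.

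A symbol did not always stand for 1 signal. The symbol Ighm was carried by 7 probe sets and Igkv5-43 by 3, and nearly identical variable genes can bind the same probes, so the gene behind a value is uncertain within each locus. Of the 7 Ighm probe sets, 5 had their highest value in vasectomy 2, and their differences ran from -0.18 to 0.83. The probe set at 0.83 was at 6.35 and 7.58 in vasectomized mice and at 5.62 and 6.65 in sham mice, and that at -0.18 was at 3.57 and 5.18 and at 2.83 and 6.28. All 3 Igkv5-43 probe sets were lowest in vasectomy 1, and 2 of them lay below the stand-in. Ighg3 had 2 probe sets, with differences of 0.395 and 0.22. The second was at 3.89 and 3.93 in vasectomized mice and at 3.95 and 3.43 in sham mice. It lay below the stand-in, and sham 1 was above sham 2, unlike in the first.

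Genes that mark B cells and plasma cells were less uniform. Mouse 2 was above mouse 1 in both groups for 9 of 19 measured B cell genes and 8 of 21 plasma cell genes, against 30.2% of all genes. In bulk tissue, fewer cells of a type and less RNA per cell cannot be told apart. Of the B cell genes, 11 had a higher mean, 6 a lower mean and 2 an equal mean in vasectomized mice (median 0.035, and -0.035 without vasectomy 2), 0 were called by limma and 6 lay above the stand-in. Vasectomy 2 was the highest array for 11 of the 19. Ms4a1, which encodes CD20, was at 3.99 in both vasectomized mice and at 3.43 and 3.88 in sham mice. Cd79a and Cd79b, which encode the signalling chains of the B cell receptor, also lay below the stand-in in every array, with Cd79a at 3.37 and 4.18 against 3.91 and 3.64. Pax5, a B cell transcription factor, was at 4.68 and 4.93 in vasectomized mice and at 4.46 and 4.96 in sham mice. The B cell genes with the brightest probe sets were Blnk, Tnfrsf13c and Bank1, at 5.26 to 8.75 and with differences between -0.11 and 0.12.

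Of 21 measured plasma cell genes, the mean was higher for 14, lower for 6 and equal for 1 (median 0.035), 0 were called by limma and 15 lay above the stand-in. Mzb1, which assists antibody assembly, was at 4.78 and 4.56 in vasectomized mice and at 4.78 and 4.82 in sham mice, within 0.26 over the 4 arrays. Sdc1, which encodes the plasma cell surface marker CD138 and is also found on epithelium, was at 5.61 and 5.49 and at 5.58 and 5.66. Both were lowest in vasectomy 2, where Ighm and Jchain were highest, but over the 21 plasma cell genes that array was the lowest for 7 and the highest for 7. The plasma cell regulators Prdm1 and Irf4 differed by 0.28 and 0.01, and Tnfrsf17, the receptor BCMA, by 0.23 at values of 3.1 to 3.5. Xbp1, a regulator of the secretory apparatus in plasma cells and other secretory cells, was at 9.18 and 9.09 in vasectomized mice and at 9.45 and 8.82 in sham mice. Creld2, Sec11c and Sdf2l1, genes of the endoplasmic reticulum, had the brightest probe sets of this list, and Creld2 was at 10.96 and 11.44 against 10.29 and 11.31.

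Receptors that carry or bind antibodies were measured by 11 genes, with a higher mean for 5 and a lower one for 6 (median -0.01, 0 called by limma). Mouse 2 was above mouse 1 in both groups for 6 of the 11, against 30.2% of all genes. Pigr was at 10.97 and 7.98 in vasectomized mice, against 11.82 and 10.63 in sham mice. Vasectomy 2, the array with the highest Ighm, Iglv1 and Jchain values, had the lowest Pigr value, and sham 1 the highest. The difference was -1.75 (standard error 0.95, adjusted p = 1.0 from limma), and it was -0.255 without vasectomy 2. Fcamr, the receptor for the Fc part of IgA and IgM, had the same order, at 6.08 and 4.66 in vasectomized mice and at 6.54 and 5.76 in sham mice. The neonatal Fc receptor gene Fcgrt had the opposite order, at 7.07 and 7.60 and at 6.79 and 7.22, and so did Fcer1g, the signalling chain of Fc receptors, at 6.16 and 6.82 and at 5.99 and 6.45. In vasectomy 2 the summed level of the 13 luminal secretion genes was 14.27 (log2), against 15.16 to 15.25 in the other arrays, and its part in the low Pigr value was not tested.

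Signals that attract or sustain plasma cells were measured by 16 genes, of which 7 had a higher, 7 a lower and 2 an equal mean (median 0.00, 0 called by limma). Mouse 2 was above mouse 1 in both groups for 7 of the 16, against 30.2% of all genes. Cxcl13, a chemokine that attracts B cells, was 1 of these, at 6.92 and 8.28 in vasectomized mice and at 6.85 and 7.76 in sham mice. Cxcl12, a chemokine of the plasma cell niche, was at 7.31 and 7.78 against 7.11 and 7.14, and Il6ra, the interleukin-6 receptor gene, at 6.83 and 6.59 against 6.72 and 6.99. The adjusted p from limma was 1.0 for Cxcl13 and Cxcl12, with differences of 0.295 and 0.42 that were -0.385 and 0.185 without vasectomy 2. Germinal centre and class switching genes had a median difference of -0.05 over 8 genes, with Fas, Bcl6 and S1pr2 at 5.91 to 7.53. Precursor B cell genes had a median of -0.005 over 9 genes, among them Igll1, the surrogate light chain gene, at 4.37 and 4.68 against 4.38 and 4.58. In these lists 0 genes were called.

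**Figure D4:**
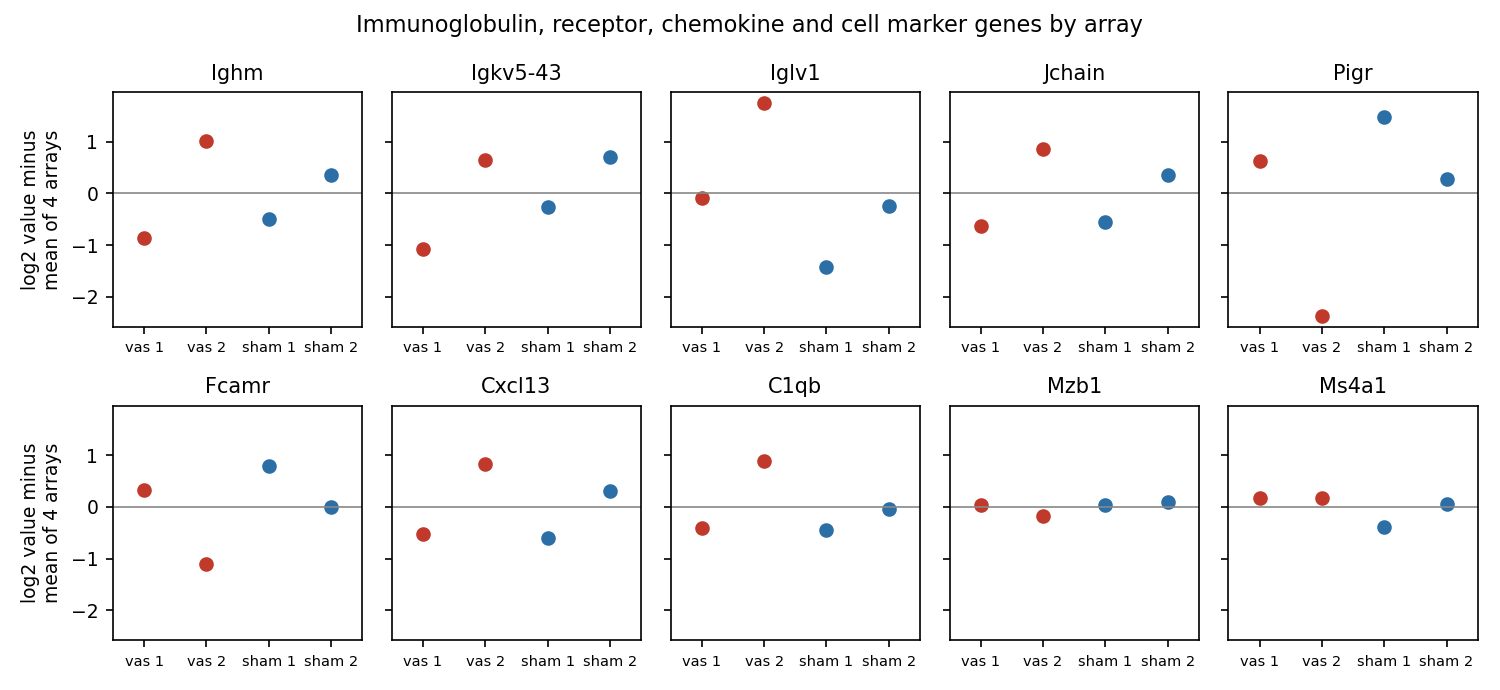
Log2 value of each gene minus its mean over the 4 arrays (vertical axis), in the 2 vasectomized mice (red) and the 2 sham mice (blue). Ighm, Igkv5-43, Jchain, Cxcl13 and C1qb are higher in vasectomy 2 and sham 2 than in vasectomy 1 and sham 1. Pigr and Fcamr are lowest in vasectomy 2, and Mzb1 stays within 0.26. Iglv1 and Ms4a1 are higher in both vasectomized mice than in both sham mice, as are 12.5% of all genes. Ms4a1 lies below the background stand-in of 4.625 in every array.

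Among markers of other cell types, the macrophage list came nearest to the order of the immunoglobulin genes. Mouse 2 was above mouse 1 in both groups for 10 of 14 macrophage genes, against 30.2% of all genes. That held for 4 of 12 T cell, 4 of 11 adipocyte, 2 of 10 smooth muscle, 1 of 8 seminal vesicle and 0 of 13 luminal genes. Among 14 macrophage genes, the mean was higher in vasectomized mice for 12, and 11 had their highest value in vasectomy 2. Their summed level (log2) was 10.23 and 10.76 in vasectomized mice and 10.11 and 10.33 in sham mice, and C1qb, a complement gene made by macrophages, was at 6.74 and 8.04 against 6.70 and 7.10. Mertk, the brightest gene of this list, ran the other way, at 8.94 and 8.18 against 8.81 and 8.71. The macrophage median difference of 0.298 was -0.07 without vasectomy 2. Of 11 adipocyte genes 10 were highest in vasectomy 2, with summed levels of 8.70 and 10.42 in vasectomized mice and 8.48 and 8.45 in sham mice. Seminal vesicle genes had summed levels of 11.40 and 14.64 in vasectomized mice and 13.96 and 11.49 in sham mice. The sham 1 sum rests on a few bright genes, with Svs2 at 12.49, Svs4 at 10.63 and Svs5 at 13.06 there. In the same array Svs1, Svs3a, Svs3b, Svs6 and Sva were at 4.94 or less. All 10 smooth muscle genes had their highest value in vasectomy 2, with summed levels of 13.82 and 14.13 against 13.70 and 13.54. Among 12 T cell genes the mean was higher for 2 and lower for 10, 2 lay above the stand-in and 2 were highest in vasectomy 2, with a median of -0.09. No list has a defining marker listed at 0, since RMA values have none, and the part of these tissues in the immunoglobulin values was not tested.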

How the data were processed

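The prostate of 4 mice was measured on 1 array each, and groups and mouse numbers were read from the sample titles. The deposited values, taken as log2, come from RMA, for which the submitters' processing notes name Affymetrix Expression Console 1.3.1 (background subtraction, quantile normalization, probe summary; version and log base not given in the sources used here), so a shift common to most genes could not be seen. The methods name a human array, but the probe annotation lists mouse genes. The annotation gave 1 symbol to 23521 of the 41345 probe sets, several to 1820 and none to 16004. The brightest probe set by mean stood for its symbol, which left 22180 genes. The test was limma 3.58.1 (lmFit, eBayes; R 4.3.3), with Benjamini-Hochberg adjustment over all 22180 genes at 0.05. A two-sided exact permutation test of 2 arrays against 2 cannot give a p below 0.333 and was not run. The code was tested on simulated data. Lists were described by counts and medians, with no test. Differences are vasectomy minus sham.

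Named genes were the constant and J chain genes, the 5 variable genes per locus with the highest mean, non-overlapping genes above the stand-in (up to 6 each way), the 4 with the widest range, and the top 3 and lineage-defining genes of each B and plasma cell, receptor and signal list. The rest are given by counts, apart from some named outside this rule, such as Fcamr, Igll1, C1qb, Mertk, Sbp and Krt8. The genes and lists were chosen with earlier results of these data known. Alternatives were centring on the median, quantile normalization run again, a replicate block, an intensity trend, leaving out dim genes, averaging the probe sets of a symbol, the methods' t-test and leaving out each array. Figures were drawn with matplotlib 3.10.9.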

Additional observations from a re-analysis of the deposited data

How the results depend on the processing

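With 2 arrays per group, only large differences could be called, and values below the stand-in carry little signal. Calls at an adjusted p under 0.05 were 0 for the immunoglobulin genes and 0 for all genes under every alternative run. With a replicate block, an unadjusted p under 0.05 was reached by 4 immunoglobulin genes (Ighv1-53, Igkv4-59, Igkv9-120 and Iglv1) and 821 of all genes, against 1 (Iglv1) and 453 without it. It was reached by 0 of 20 with quantile normalization run again (540 of all genes) and by 0 of 11 with dim genes left out (178). Same-numbered mice deviated together with a correlation of 0.191 over all genes and 0.451 over the immunoglobulin genes, but the labels do not say what a mouse number marks, and 2 pairs cannot settle it. The vasectomized mouse was higher in both numbered pairs for 5 of 20 genes and lower in both for 6, against 23.0% and 24.5% of all genes. Above the stand-in, 0 of 11 genes were lower with no overlap, against 8.96%. Leaving out 1 array, 3 to 9 of 20 genes were higher with no overlap (27.7% to 33.4% of all genes) and 2 to 12 lower (28.8% to 33.1%), with 9 higher without vasectomy 1 (33.4%) and 12 lower without vasectomy 2 (30.5%).

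Among the named immunoglobulin genes, signs turned only when an array was left out. The difference then ran from -0.79 to 1.09 for Ighm, -0.13 to 0.92 for Ighg3, -0.535 to 0.955 for Jchain and -0.055 to 1.285 for Ighv1-54. It ran from -1.30 to 0.43 for Igkv5-43, -0.21 to 0.07 for Igkv15-103, -0.475 to 0.335 for Igkv4-91, -2.245 to 0.495 for Igkv4-72, -1.57 to 0.13 for Igkv9-120 and -2.155 to 0.255 for Igkv4-59. The cause was not tested. The median of the receptor list, -0.01, was 0.135 with dim genes left out and 0.013 with quantile normalization run again, and that of the precursor list, -0.005, was 0.028 with dim genes left out. Iglv1, Ighv1-53 and Ighv1-47 kept their sign under all alternatives run.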

Other observations

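Some probe sets carry immunoglobulin symbols but stand for no single gene, or for a joining segment or an older name, and were outside the comparison above. There were 5 with several symbols, and all 5 had their highest value in vasectomy 2. The one listed for Igkv4-53, Igkj1 and Igkv6-23 was at 9.29 and 11.05 in vasectomized mice and at 9.60 and 10.68 in sham mice. The one listed for Igkv9-124 and Igkv4-70 was at 8.44 and 10.25 and at 8.76 and 10.14, and the one listed for Ighg3, Ighv1-47 and Ighm at 6.72 and 9.23 and at 7.55 and 7.90. In these 3, vasectomy 2 and sham 2 were above the other array of their group. Their differences were 0.03, -0.105 and 0.25, smaller than the gap between the 2 vasectomized mice in each. The probe set listed for Ighv1-54, Igkv1-135 and Ighm had the same order, by 1.03 in vasectomized mice and 1.11 in sham mice. The one listed for Ighv1-72 and Ighm did not. There vasectomy 2 was above vasectomy 1 by 0.61, but sham 2 minus sham 1 was -0.76.

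Igkj1, a kappa joining segment, was at 5.96 and 5.94 in vasectomized mice and at 5.19 and 5.62 in sham mice. These groups did not overlap, as held in this direction for 12.5% of all genes. Igh-VS107, a heavy chain variable name, had 2 probe sets. The first was at 2.53 and 6.73 in vasectomized mice and at 2.82 and 4.12 in sham mice, and the second at 6.23 and 5.81 and at 7.02 and 6.12. The first was above the stand-in in vasectomy 2 alone, whereas the second was lowest there.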
